A study of Mus musculus with 71 samples.

Results

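The 8 genes described here carry cholesterol synthesis and its transcriptional control. Hmgcs1, Idi1, Fdft1, Sqle, Cyp51 and Hsd17b7 encode enzymes of the pathway, Insig1 encodes a brake on it and Srebf2 encodes SREBP2, its main transcription factor. They were chosen by gene name, with earlier results of these data known. All 8 were found among the 21527 genes of the count tables and among the 12659 genes that passed the filter on low counts. For each gene, the reads in every library and the loss of metabolic label during a chase were compared between cells with and without the METTL3 inhibitor STM2457.

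Male mouse embryonic stem cells (mESC) in serum-free 2i/LIF medium were labelled for 24 h with 100 µM s4U (4-thiouridine), with an exchange of medium every 3 h. They were then washed and given fresh medium with a 100-fold excess of uridine. In SLAM-seq, alkylated s4U is read as a T-to-C conversion, so the share of covered T positions that read as C (the conversion rate) follows the RNA made before the chase. STM2457 at 20 µM, or its solvent DMSO alone at 0.2%, was present from 6 h ahead of the chase until collection. STM2457 blocks METTL3, the methyltransferase that places most m6A on mRNA. The 63 labelled libraries were collected after 0, 1, 1.5, 2.3, 3.5, 5.3, 8 and 12 h of uridine. Each treatment has 4 libraries per time, except for 3 with STM2457 at 3.5 h. The other 8 libraries came from cells without s4U, 4 per treatment, whose hour of collection the labels do not give. The study describes its replicates as biologically independent, while the labels do not say whether they were separate cultures. The sources describe no exchange of medium during the chase, so hours of chase and hours in the same medium cannot be told apart.

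SREBP2 is made as a precursor in the membrane of the endoplasmic reticulum, where the escort protein SCAP binds it. When sterols are plentiful, INSIG proteins hold SCAP there. When sterols fall, SCAP carries SREBP2 to the Golgi, where the site-1 and site-2 proteases release the part that enters the nucleus and switches on the enzymes of the pathway and Insig1 itself. In the pathway, HMGCS1 makes HMG-CoA from acetyl-CoA units, IDI1 makes dimethylallyl diphosphate, FDFT1 joins farnesyl diphosphate into squalene, SQLE oxidises squalene, CYP51 removes a methyl group from lanosterol, and HSD17B7 acts as a ketoreductase in the steps after lanosterol.

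SREBPs bind sterol regulatory elements near the start of their targets, often beside a CCAAT box, the site of NF-Y. RefSeq promoter entries on GRCm38.p6 were found for 6 of the 8 genes, all but Fdft1 and Sqle, and were searched on both strands for the letters TCACNCCAC (a sterol regulatory element), CCAAT, and CACGTG (an E-box). The 150 bases before each RefSeq start are shown 5′ to 3′ on the gene's own strand, since SREBPs bind near the start of targets. Capitals mark the matches, and ATTGG is CCAAT on the opposite strand. The spans are chr13:119690201-119690350 (+) for Hmgcs1, chr13:8885456-8885605 (+) for Idi1, chr5:4104698-4104847 (−) for Cyp51, chr1:169969206-169969355 (−) for Hsd17b7, chr5:28071262-28071411 (+) for Insig1 and chr15:82147119-82147268 (+) for Srebf2. The RefSeq start differs from that of the gene spans given below, from GENCODE. It lies 28 bases before the span for Hmgcs1 and inside it for the other 5, by 36 bases for Hsd17b7, 49 for Cyp51 and Insig1, 88 for Srebf2 and 105 for Idi1, so the last bases of those 5 windows lie within the annotated gene.
Hmgcs1: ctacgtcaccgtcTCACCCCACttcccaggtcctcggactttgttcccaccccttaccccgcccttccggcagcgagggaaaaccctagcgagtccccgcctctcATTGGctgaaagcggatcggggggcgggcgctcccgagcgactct
Idi1: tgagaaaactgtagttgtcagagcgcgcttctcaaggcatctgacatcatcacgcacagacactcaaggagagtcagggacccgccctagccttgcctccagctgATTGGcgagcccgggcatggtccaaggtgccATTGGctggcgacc
Cyp51: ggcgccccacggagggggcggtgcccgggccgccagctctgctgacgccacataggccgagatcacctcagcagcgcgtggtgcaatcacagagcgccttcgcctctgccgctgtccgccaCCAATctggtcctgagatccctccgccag
Hsd17b7: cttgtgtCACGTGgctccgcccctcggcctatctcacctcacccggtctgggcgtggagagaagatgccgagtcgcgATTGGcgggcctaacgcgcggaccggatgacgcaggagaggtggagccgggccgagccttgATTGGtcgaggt
Insig1: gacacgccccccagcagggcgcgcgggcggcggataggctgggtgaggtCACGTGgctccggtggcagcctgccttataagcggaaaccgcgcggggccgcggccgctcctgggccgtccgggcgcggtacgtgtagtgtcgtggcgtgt
Srebf2: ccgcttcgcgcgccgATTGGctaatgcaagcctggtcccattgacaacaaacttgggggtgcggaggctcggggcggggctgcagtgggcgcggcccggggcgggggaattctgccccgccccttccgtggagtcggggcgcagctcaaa
Hmgcs1 was the gene with the sterol regulatory element, which began 137 bases before its start. Those letters occur in 0.622% of 27025 mouse promoters in a window of this length. CCAAT was in 5 of the 6 windows, against 25.3% of all promoters. The Insig1 match to CCAAT lay outside the printed bases, 216 bases before the start. Hsd17b7 and Insig1 held the E-box, 143 and 101 bases before their starts, against 4.30% of all promoters. A match is a description of the letters and not evidence of binding, and sterol elements with other spellings were not searched.

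Libraries held 4539726 to 7368244 reads over all genes, with a median of 5726508, and no pair of replicates held the same counts. Markers of mESC were present in both treatments, though Klf4 was low. Pou5f1 was at 647 to 1050 CPM (reads scaled to a common library total) and the summed level of the 7 listed markers in the files was 3291 to 4696 in DMSO and 3597 to 4525 in STM2457. The 7 markers of other cells summed to 16.3 to 55.3 in DMSO and 20.9 to 55 in STM2457, mostly Cdx2 and Thy1, and the fibroblast gene Col3a1 was at 0 in 69 of 71 libraries. Of the mESC markers, Dppa5a had the highest median over all libraries (2683 CPM). Klf4 had the lowest (2.71 CPM, at 0 in 3 libraries), under the medians of Thy1 (10.9) and Cdx2 (19.5). A group of 5 libraries, DMSO replicates 2 and 4 and STM2457 replicate 4 at 1 h and DMSO replicates 3 and 4 at 5.3 h, stood more than 2 SD out along the first component of the spread within groups, which held 18.9% of that spread. Deviations from the group mean went with the position on this component for Hmgcs1, Fdft1 and Idi1 (Pearson r of 0.49, 0.41 and 0.34 over the 71 libraries) and against it for Insig1 (r of −0.33).

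Reads were counted in 3′ UTR windows of each gene. The genes lie on GRCm38 at chr13:119690379-119708260 (+, Hmgcs1), chr13:8885501-8892451 (+, Idi1), chr14:63145150-63179578 (−, Fdft1), chr15:59315077-59331192 (+, Sqle), chr5:4081145-4104746 (−, Cyp51), chr1:169949535-169969241 (−, Hsd17b7), chr5:28071363-28078662 (+, Insig1) and chr15:82147181-82205379 (+, Srebf2). The counted windows were 251 bases for Insig1 to 1031 bases for Cyp51. Of the reads of Idi1, 90.5% mapped to several places, as did 59.6% of those of Fdft1 and 19.6% of those of Insig1, while the other 5 genes had under 0.5% and the median of all genes tested was 0.279%. Levels, conversion rates and half-lives of Idi1 and Fdft1 are therefore uncertain where copies share their reads. Half-lives were not fitted without such reads.

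Over the whole chase, 6 of the 8 genes were higher with STM2457 than with DMSO and none was lower. Averaged over the 8 within-time differences, Fdft1 rose 1.39-fold, Cyp51 1.33-fold, Insig1 1.27-fold, Hmgcs1 1.24-fold, Hsd17b7 1.23-fold and Sqle 1.12-fold, all past an adjusted p of 0.01. Of all genes tested, 26.5% passed this test and 13.9% passed it as higher. The median log2 fold change was 0.31 over the 8 genes and −0.01 over all genes. Here and below, TMM scaling centres the bulk of genes, so the all-gene median largely reflects the scaling. Fold changes are relative to that bulk, and a shift shared by most genes would not show. For its RNA-seq, the study normalised to genes without m6A sites, after a check against spike-ins. In bulk RNA, a change in the number of cells of a type and a change in RNA per cell cannot be told apart.

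**Figure D1:**
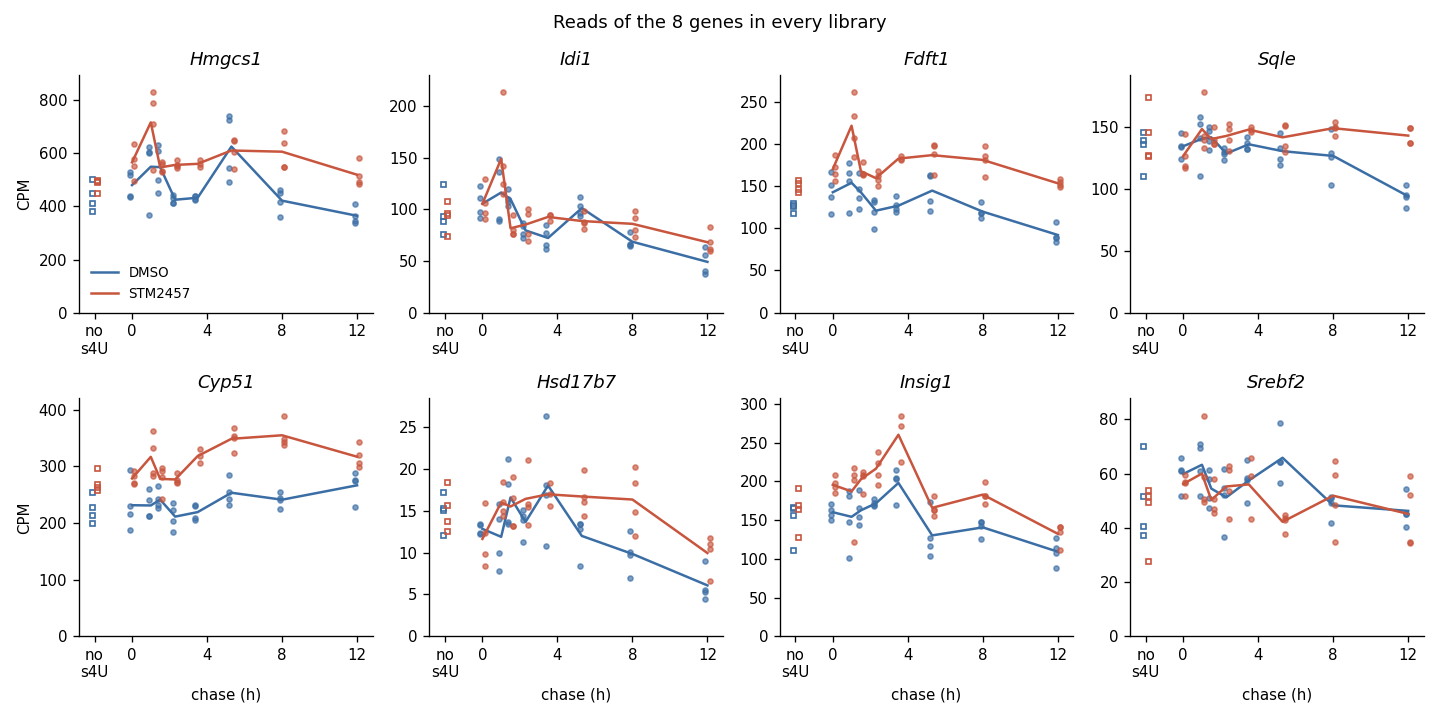
CPM (reads scaled to the library total, y axis, linear, from 0) of the 8 genes in every library against hours of chase (x axis), with libraries without s4U as squares at the left, DMSO in blue and STM2457 in red. Lines join the group means. At 12 h, the 4 STM2457 libraries of Hmgcs1, Fdft1, Sqle and Cyp51 sit above all 4 DMSO libraries, while those of Srebf2 overlap.

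Among the enzymes before squalene, Hmgcs1 was higher by 0.31 ± 0.041 on the log2 scale (SE; adjusted p = 2.04e-09). At 12 h of chase its level was 365, 337, 411 and 346 CPM in DMSO and 583, 486, 493 and 516 in STM2457. The lowest STM2457 library was above the highest DMSO library. Idi1 differed by 0.14 ± 0.055 in the mean of the 8 times (adjusted p = 0.0419), which did not pass the threshold, and its 12 h libraries, 37.7, 40.1, 55.6 and 63.3 in DMSO and 68.8, 61.7, 82.7 and 59.5 in STM2457, overlapped.

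The 2 enzymes that make and oxidise squalene were both higher. Fdft1 had the largest difference of the 8 genes, 0.47 ± 0.038 (SE; adjusted p = 5.463e-17). At 12 h it was at 88.1, 89.7, 107 and 83.1 CPM in DMSO and at 149, 154, 158 and 151 in STM2457. The groups were far apart, and the difference over the 8 times was 0.51 without the reads that mapped to several places. Sqle was higher by 0.17 ± 0.036 (adjusted p = 0.0001347), and its difference was largest at 12 h. Its libraries held 103, 84.3, 93.7 and 95.3 CPM in DMSO at 12 h and 149.5, 137, 137 and 149 in STM2457, with no overlap.

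Of the enzymes after lanosterol, Cyp51 was higher by 0.41 ± 0.035 (SE; adjusted p = 1.254e-15). Its 12 h libraries were at 289, 276, 274.5 and 228 CPM in DMSO and at 299.7, 320, 307 and 342.5 in STM2457, close but without overlap. Hsd17b7, counted at 24 to 151 reads per library, was higher by 0.30 ± 0.083 (adjusted p = 0.002337). At 12 h it was at 5.29, 4.49, 5.50 and 9.01 CPM in DMSO and at 6.58, 11, 10.4 and 11.8 in STM2457, which overlapped. This call did not stand without replicate 1 (adjusted p = 0.0130), without replicate 3 (0.0586) or without the times 1 h and 5.3 h (0.25, adjusted p = 0.0445), the last chosen after seeing the data.

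Of the 2 control genes, Insig1 rose and Srebf2 did not pass the test. Insig1 was higher by 0.34 ± 0.052 (SE; adjusted p = 1.253e-07). At 0 h its libraries were at 163, 171, 150 and 156 CPM in DMSO and at 192, 208, 197 and 184 in STM2457. It was the gene among the 8 whose groups did not overlap at that time, as was so in this direction for 5.59% of all genes. Srebf2 differed by −0.08 ± 0.062 (adjusted p = 0.3064), with a 95% confidence interval of −0.21 to 0.04. Its 12 h libraries, 54.4, 44.9, 40.3 and 45.2 in DMSO and 59, 52.3, 34.7 and 34.4 in STM2457, spanned each other.

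At single times the differences were tested with 3 or 4 libraries per group. At 0 h, after 6 h of inhibitor, none of the 8 genes passed edgeR's test (4 had an unadjusted p under 0.05, as had 2033 genes, and DESeq2 also called none), where 1.68% of all genes did. Cyp51 (0.29), Fdft1 (0.28), Hmgcs1 (0.26) and Insig1 (0.31) had the larger log2 differences, with adjusted p of 0.0868 to 0.269, and Sqle (−0.07), Idi1 (0.02), Hsd17b7 (−0.12) and Srebf2 (−0.07) the smaller. With the within-group component as a covariate, an alternative chosen after seeing the data, Hmgcs1 (0.37) and Fdft1 (0.37) passed at 0 h.

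Fdft1 was called higher at 5 of the 8 times and Cyp51 at 4, and both had higher means with STM2457 at every time. At 1 h these 2 genes were called, against 1.11% of all genes called higher, as they were at 3.5 h (1.04%) and at 5.3 h (2.46%). At 8 h Hmgcs1 (0.54), Fdft1 (0.61) and Cyp51 (0.57) were called, against 1.79% of all genes. At 1.5 h none was called (4 at an unadjusted p under 0.05, as 4012 genes, and none by DESeq2), where 8.18% of all genes were. At 2.3 h none was called by edgeR (4 at an unadjusted p under 0.05, as 1807 genes), where 1.61% of all genes were, and DESeq2 called 2, Fdft1 and Cyp51. When only the 2 groups compared were fitted, neither gene was called at 1 h or 5.3 h. Several calls at single times were lost with 1 replicate left out. Leaving out any replicate number from every group ended the call of Fdft1 at 3.5 h (adjusted p of 0.0114 to 0.0932) and at 5.3 h (0.0121 to 0.120), and leaving out replicate 1 or 4 ended it at 1 h (0.0624 and 0.0641). Cyp51 lost its call without replicate 1, 2 or 3 at 1 h (0.0121 to 0.214) and at 3.5 h (0.0104 to 0.0284), and without 2 or 3 at 5.3 h (0.0158 and 0.0225). Hmgcs1 lost it at 8 h without replicate 2 or 3 (0.0390 and 0.0239). Without multimapping reads, Fdft1 was not called at 1, 3.5 and 8 h (0.0804, 0.0157 and 0.0704), was called at 1.5 h (0.53, against 0.28 with all reads; adjusted p = 0.00431), and was higher by 0.77 at 5.3 h, against 0.40 with all reads.

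Idi1 was not called at any single time by edgeR, with log2 differences from −0.38 at 1.5 h to 0.51 at 12 h. Without multimapping reads, which left few reads for this gene, its differences spread further, to −0.57 at 0 h (adjusted p = 0.462), −0.87 at 1.5 h (0.0902), −1.08 at 5.3 h (0.0510) and 1.37 at 8 h (0.0251).

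The libraries that stood apart lie at 1 h and 5.3 h, and the tests were repeated without these 5, a choice made after seeing the data. At 1 h, Fdft1 was then higher by 0.56 and Hmgcs1 by 0.57, both called, and Cyp51 by 0.47, which was not (adjusted p = 0.0202). At 5.3 h, Fdft1 (0.59) and Cyp51 (0.58) were called, and Hmgcs1 was at 0.26 (0.341). In the mean over the chase the same 6 genes were called, with 0.50 for Fdft1, 0.42 for Cyp51, 0.37 for Hmgcs1, 0.34 for Hsd17b7, 0.31 for Insig1 and 0.17 for Sqle.

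Insig1 differed by 0.26 to 0.40 at each of the 8 times, and at no single time did it pass edgeR's test in the fit of all groups. When only the 2 groups compared were fitted, it passed at 2.3, 3.5 and 8 h (0.33, 0.40 and 0.40, adjusted p of 0.00865, 0.00506 and 0.00507).

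At 12 h, after 18 h of inhibitor, Fdft1 (0.78 ± 0.11, SE; adjusted p = 1.005e-07), Sqle (0.65 ± 0.10; 2.524e-06) and Hmgcs1 (0.55 ± 0.11; 0.0004091) were called higher. Of all genes, 3.85% were. Every STM2457 library was above every DMSO library for these 3 genes and Cyp51, as for 8.01% of all genes. Hsd17b7 (0.75, adjusted p = 0.0377), Idi1 (0.51, 0.0254) and Cyp51 (0.29, 0.0444) did not pass, nor did Insig1 (0.32, 0.176) and Srebf2 (−0.00, 0.996). Without DMSO replicate 4, in which Hsd17b7 and Idi1 were at their highest of the 4, both passed at 1.02 and 0.67. Idi1 also passed, at 1.57, without reads that mapped to several places, which left 2 to 29 reads per DMSO library and 32 to 76 per STM2457 library. Without replicate 2, Hmgcs1 was at 0.55 with an adjusted p of 0.0125.

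**Figure D2:**
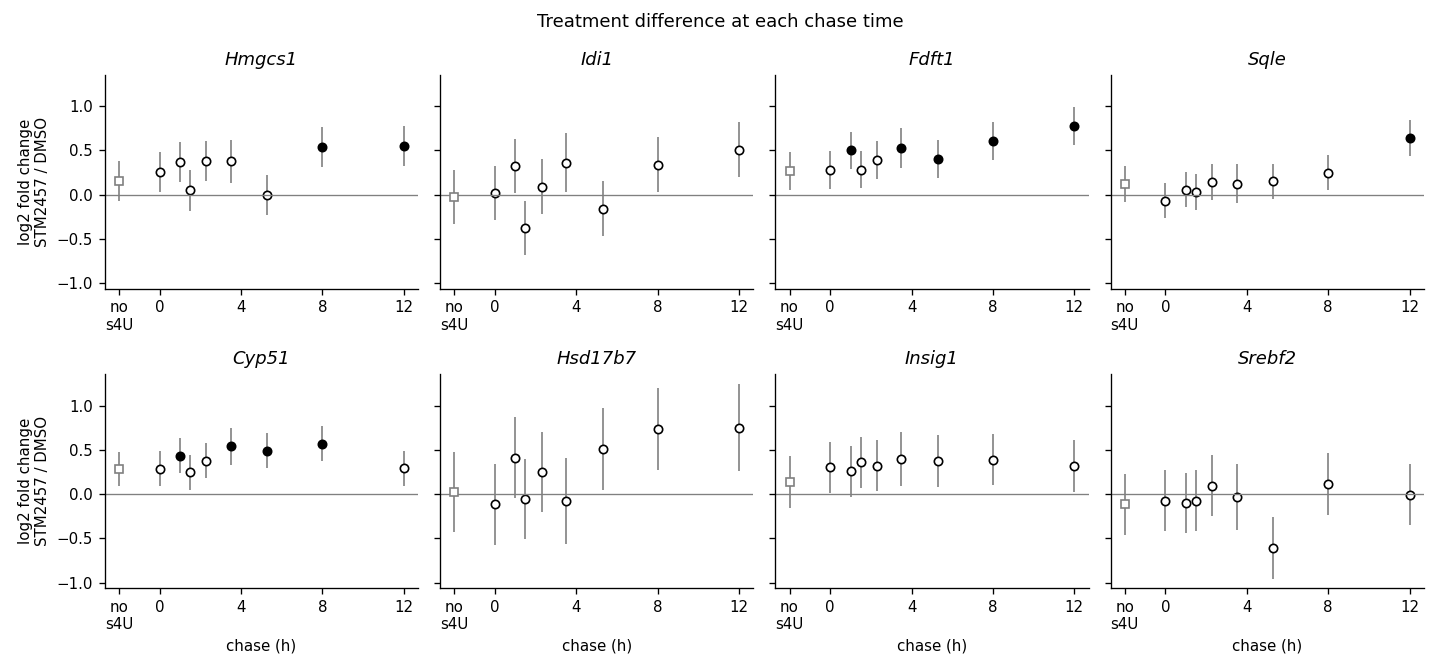
Log2 fold change of read counts, STM2457 against DMSO (y axis), at each time of chase (x axis, h) and without s4U (grey square) for the 8 genes, with 95% confidence intervals. Filled points passed an adjusted p of 0.01, and among the 8 times they number 5 for Fdft1, 4 for Cyp51, 2 for Hmgcs1, 1 for Sqle and 0 for the others.

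Srebf2 stood apart at 5.3 h, where it was at 56.5 to 78.5 CPM in DMSO and at 37.7 to 44.8 in STM2457. The difference of −0.61 had an adjusted p of 0.0152 and did not pass with edgeR, while it passed with DESeq2 (−0.61, 0.00694). DMSO replicates 3 and 4 of that time are among the 5 libraries that stood apart, and without those 5 the difference was −0.49 (0.234). Hmgcs1 at the same time averaged 625 ± 126 in DMSO and 611 ± 50.1 in STM2457 (SD, n = 4 each), its smallest difference along the chase.

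In cells without s4U the 8 genes had a median log2 difference of 0.13, and none passed edgeR's test (2 had an unadjusted p under 0.05, as had 2557 genes, and DESeq2 called none), where 2.58% of all genes did. The 2 were Fdft1 (0.27, adjusted p = 0.122) and Cyp51 (0.29, adjusted p = 0.0706). Fdft1 was at 118 to 130.1 CPM in DMSO and 143 to 157 in STM2457, and Cyp51 at 199.8 to 256 and 258 to 297. Neither gene overlapped between treatments, as was so in this direction for 5.66% of all genes. Labelled cells at 0 h were also compared with cells without s4U. These may also differ in hour of collection, hours of treatment and exchange of medium, which cannot be told apart from the label. None of the 8 genes was called by edgeR or DESeq2 in either treatment (0 with an unadjusted p under 0.05 in DMSO and 1, Sqle at −0.22, in STM2457, against 1445 and 1578 genes), where edgeR called 0.513% and 0.521% of all genes.

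In DMSO, read levels of 6 of the 8 genes fell between 0 h and 12 h of chase. Of all genes, 8.20% were called as lower. The median log2 change was −0.67 over the 8 genes and 0.04 over all genes. Idi1 fell by 1.24 on the log2 scale, Hsd17b7 by 1.21, Fdft1 by 0.77, Insig1 by 0.69, Sqle by 0.65 and Hmgcs1 by 0.53 (adjusted p from 7.251e-09 to 0.0002916). For these 6 genes, every 12 h library was below every 0 h library, as for 8.22% of all genes. Without replicate 2, Hmgcs1 (−0.48, adjusted p = 0.0209) and Insig1 (−0.58, 0.0155) did not pass. Without multimapping reads, Idi1 fell by 2.07 (5.395e-05). Srebf2 changed by −0.51 (0.0249) and Cyp51 by 0.07 (0.665), neither past the threshold.

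The fall in DMSO was largest for Idi1, from 122, 111, 97.4 and 91.4 CPM at 0 h to 37.7, 40.1, 55.6 and 63.3 at 12 h. Fdft1 went from 166, 151, 117 and 137 to 88.1, 89.7, 107 and 83.1. Insig1 went from 163, 171, 150 and 156 to 107.5, 87.6, 127 and 114. The course between the ends was not even. In DMSO, Hmgcs1 averaged 480.4 at 0 h, 548 at 1.5 h, 425 at 2.3 h, 625 at 5.3 h and 365 at 12 h, and Insig1 averaged 198 at 3.5 h, above its 0 h mean of 160.1. The 7 time differences from 0 h, tested together, passed for the same 6 genes in DMSO, against 30.1% of all genes.

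In STM2457, 2 of the 8 genes fell between 0 h and 12 h, Idi1 by 0.74 (adjusted p = 0.0005422) and Insig1 by 0.68 (0.0008633), where 4.72% of all genes were called and 3.03% as lower. The 12 h libraries of both were all below those at 0 h, as for 5.70% of all genes. Without reads that mapped to several places, Idi1 did not fall, with a change of 0.07 (adjusted p = 0.941). Without replicate 2 of every group it was at −0.60 (0.0574). Insig1 was at −0.57 (0.0136) without STM2457 replicate 1 at 12 h, and did not pass without replicate 1, 2 or 3 of every group (0.0109 to 0.0215). Srebf2 (−0.44), Hsd17b7 (−0.34), Fdft1 (−0.27), Hmgcs1 (−0.24), Cyp51 (0.07) and Sqle (0.06) did not pass. Tested together, the 7 time differences passed for Idi1, Fdft1 and Insig1, against 19.1% of all genes.

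**Figure D3:**
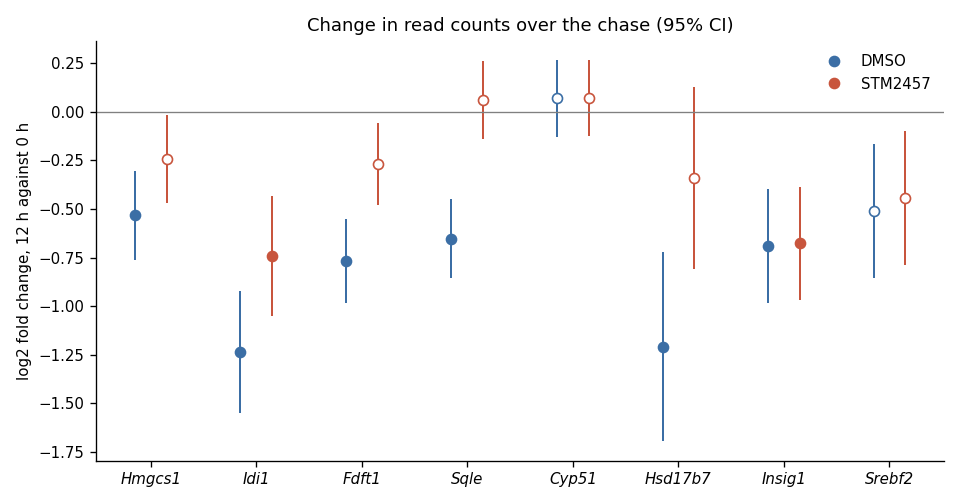
Log2 change of read counts from 0 h to 12 h of chase (y axis) for the 8 genes (x axis), with 95% confidence intervals, in DMSO (blue) and STM2457 (red). Filled points passed an adjusted p of 0.01: 6 genes in DMSO, all as lower, and Idi1 and Insig1 in STM2457.

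The difference between these 2 changes was tested for each gene as an interaction, and Sqle was the gene of the 8 that passed, against 1.11% of all genes. Its level went from 135, 145, 124 and 134 CPM at 0 h to 103, 84.3, 93.7 and 95.3 at 12 h in DMSO, and from 119, 144, 117 and 127 to 149.5, 137, 137 and 149 in STM2457. The change was higher by 0.71 ± 0.14 in STM2457 (SE; adjusted p = 0.0009235). It was 0.72 to 0.73 without replicate 2, 3 or 4 of every group, with adjusted p of 0.0152, 0.0243 and 0.0210, while it passed without replicate 1. Hsd17b7 (0.87, 95% confidence interval 0.19 to 1.54), Fdft1 (0.50, 0.20 to 0.80) and Idi1 (0.49, 0.06 to 0.93) did not pass after adjustment (0.187, 0.0571 and 0.275). Without multimapping reads the value for Idi1 was 2.14 (0.0133), also short of the threshold. Hmgcs1 differed by 0.29 (−0.03 to 0.61). Insig1 (0.01, −0.40 to 0.42), Cyp51 (0.00, −0.28 to 0.28) and Srebf2 (0.07, −0.42 to 0.56) had values near 0. An edgeR test of all 7 interaction terms together called none of the 8 genes (5 at an unadjusted p under 0.05, as 2276 genes), against 1.78% of all genes.

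The other genes of the sterol pathway were taken from lists of 6 kinds, chosen with results of these data known. In the mean over the chase, 8 of the 11 other sterol enzymes described here rose with STM2457 and none fell, where 13.9% of all genes were called higher, and the median log2 difference was 0.41. The 4 with the smallest p all act late in the pathway. Msmo1, which starts removal of the C4 methyl groups, was higher by 0.68 ± 0.028 (SE; adjusted p = 2.443e-31), and was already higher at 0 h, at 236 ± 19.5 CPM in DMSO and 346 ± 14.5 in STM2457 (SD, n = 4 each). Dhcr7 (0.57), Nsdhl (0.52) and Sc5d (0.47) also rose. Acat2, Mvk and Lss were not called. The fall of the 8 genes in DMSO was not shared by these 11 as a set. Between 0 h and 12 h in DMSO their median log2 change was 0.22, against −0.67 for the 8 genes. Of the 11, 1 was called lower and 1 higher, where 1038 and 613 of all 12659 genes were.

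Of 5 genes for proteins that process or accompany SREBP, 1 was called, where 26.5% of all genes were. Mbtps1, the site-1 protease, rose by 0.12 (adjusted p = 0.00264), whereas Scap (−0.13, 0.0318), Srebf1 (−0.09, 0.209) and Mbtps2 (−0.04, 0.750) did not pass, and the median was −0.04. Of 5 genes for uptake and transport, the lysosomal cholesterol exporters Npc1 (0.22, 0.00138) and Npc2 (0.18, 0.00976) rose, while the sterol transfer protein Stard4 (0.23, 0.0241) and the HDL receptor Scarb1 (0.04, 0.693) did not pass. These 2 of 5 stand against 13.9% of all genes called higher, DESeq2 called 1 of the 5, and the median was 0.18. Npc1 differed by 0.57 at 0 h (0.0312) and by −0.20 at 12 h (0.507), values of opposite sign that did not pass.

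Of 9 genes for fatty acid synthesis, mostly targets of SREBP1, 5 rose, against 13.9% of all genes, with a median of 0.15. Scd1 (0.31), Scd2 (0.26), Acly (0.19) and Fasn (0.17) had the smallest p. None of 6 genes for efflux and oxysterol sensing was called by edgeR or DESeq2 (0 at an unadjusted p under 0.05 in edgeR), where edgeR called 26.5% of all genes. Among them were Soat1 (−0.19), Nr1h2 (0.13), Nr1h3 (0.50) and Abca1 (0.60). Of 6 genes of the branches that use isoprenoids elsewhere, 1 was called, against 26.5% of all genes. Fnta, a farnesyltransferase subunit, fell by 0.13 (adjusted p = 0.0008757), and Dhdds (0.22), Fntb (0.09) and Pdss1 (−0.11) did not pass.

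**Figure D4:**
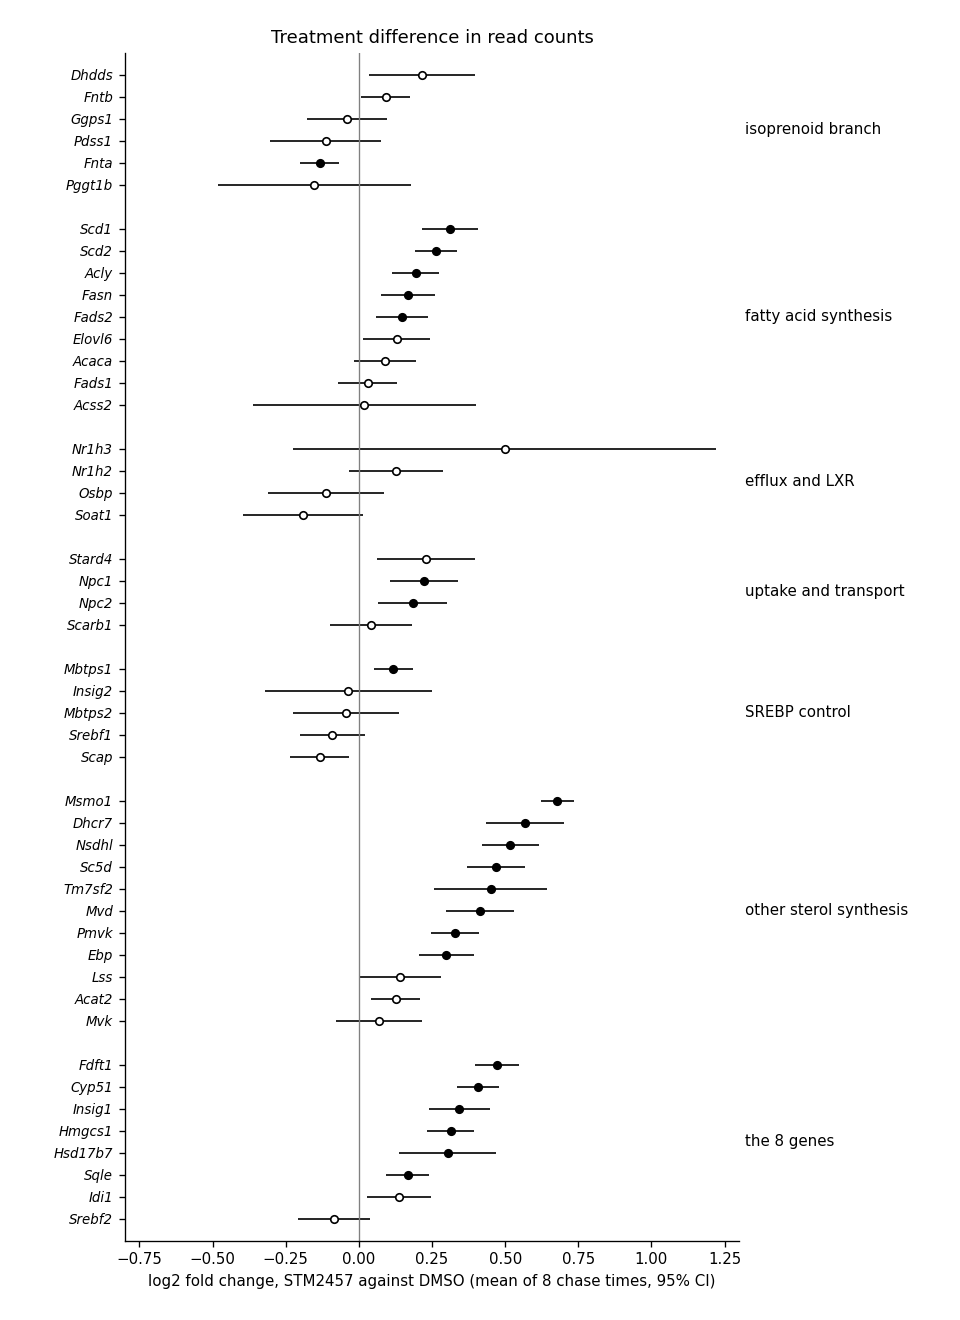
Log2 fold change of read counts, STM2457 against DMSO, averaged over the 8 chase times (x axis), with 95% confidence intervals, for the 8 genes and 6 lists of related genes (y axis). Filled points passed an adjusted p of 0.01, and the called genes among the other sterol enzymes lie between 0.30 and 0.68. Abca1, Abcg1 and Mylip, whose intervals were wide, are not drawn, and none of the 3 was called.

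The profiles of the 8 genes over the 18 groups were alike to different degrees. Fdft1 had a Pearson correlation of 0.92 with the mean standardised profile of the other 7, Hmgcs1 0.86, Sqle 0.85, Hsd17b7 0.79, Idi1 0.76 and Insig1 0.71. Cyp51 (0.38) and Srebf2 (0.36) followed it least. These group means share libraries and depth, and the correlations are a description. Among 6800 other genes with a mean log2 level of at least 4, the profiles most like the mean of the 8 were those of Fignl1 (0.95), Ywhah (0.95), Siah1a (0.94), Utp3 (0.94), Arid5b (0.94) and Rabif (0.93). None is an enzyme of sterol synthesis. Within the lists, Scd1 (0.82) and Elovl6 (0.79) were the most alike, with 129 and 174 other genes ahead of them.

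Label fell during the chase in all 8 genes in both treatments. After subtraction of the rate in cells without s4U, the median share of the 0 h label was 59.1% at 3.5 h and 14.5% at 5.3 h over the 8 genes in DMSO, and 59.5% and 14.5% over 7408 transcripts. In STM2457 it was 61.3% and 15.6% over the 8 genes and 60.2% and 18.3% over all. In both treatments the largest drop between neighbouring times fell between 3.5 h and 5.3 h. The exponential curves from which half-lives were read did not follow that step. Of the 64 group means of the 8 genes up to 3.5 h, 53 lay above their curve, and of the 48 from 5.3 h on, 42 lay below it.

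The half-lives of the 8 genes in DMSO, fitted to the mean of the replicates, ran from 2.33 h for Insig1 to 4.06 h for Idi1, around the median of 3.19 h over 7408 transcripts. Read levels of Idi1 fell during this chase, and it was not the longest when the amount of labelled RNA was fitted, as given below. Insig1 (2.33 h in DMSO and 2.52 h in STM2457) and Sqle (2.58 h and 2.79 h) were short-lived, with 23.4% and 31.3% of transcripts shorter in DMSO. Hmgcs1 (3.96 h and 3.70 h), Fdft1 (3.72 h and 4.19 h), Idi1 (4.06 h and 3.20 h) and Srebf2 (3.76 h and 4.25 h) were above the DMSO median. Cyp51 was at 2.74 h in DMSO and 4.13 h in STM2457, and Hsd17b7 at 2.80 h and 1.05 h. The median over all transcripts was 3.45 h in STM2457.

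The replicate error came from 4 series per treatment, made of libraries with the same replicate number. The STM2457 series of replicate 4 has no library at 3.5 h and was fitted without that time. Leaving 3.5 h out of every fit shortened the median half-life over all transcripts, from 3.19 to 2.94 h (DMSO) and from 3.45 to 3.24 h (STM2457). The tests between series treat this series like the others, so its comparison with them is uneven. Every series of a treatment subtracted the same background, the mean of its 4 libraries without s4U. Error in that background is therefore not in the spread between series. No transcript of 5772 passed limma's test at an adjusted p of 0.05, a share of 0%, and none of the 8 genes did (405 transcripts, 7.02%, and 1 of the 8, Hsd17b7, had an unadjusted p under 0.05). With 3.5 h left out of every series, no transcript of 5898 passed. Cyp51 had half-lives of 3.12, 2.42, 3.56 and 2.13 h in DMSO and 6.38, 3.37, 3.54 and 3.99 h in STM2457, which overlap. Its log2 ratio was 0.60 with a 95% confidence interval of −0.05 to 1.25 (limma adjusted p = 0.722, two-sided exact permutation p = 0.0857). The ends of this range went with the 0 h rate. The longest half-life was in STM2457 replicate 1, with the lowest 0 h rate (0.930%). The shortest was in DMSO replicate 4, with the highest (1.90%).

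Hsd17b7 had half-lives of 1.79, 2.00, 6.06 and 3.21 h in DMSO and 1.66, 0.734, 0.909 and 1.29 h in STM2457. The groups did not overlap, which gives the smallest exact permutation p that 4 against 4 allows, 0.0286 (two-sided). In STM2457 the background shared by the 4 series was 0.0939% for this gene. It came from replicate 1 alone, with 6 conversions, as replicates 2 to 4 had 0. Its error is not part of that p. The 0 h rates by which the series were divided rested on 14 to 23 conversions in DMSO and 20 to 37 in STM2457. They were 1.00, 1.05, 1.06 and 1.39% in DMSO and 1.48, 2.15, 2.48 and 1.13% in STM2457. STM2457 replicates 2 and 3, with the highest of these rates, had the shortest half-lives. The log2 ratio of Hsd17b7 was −1.40 (−2.35 to −0.45, limma adjusted p = 0.669). The gene had 386 to 3394 covered T positions per library, summed over reads. When half-lives were fitted to the amount of labelled RNA the groups overlapped (exact permutation p = 0.143). At 12 h in STM2457 it had 0 conversions among 4965 covered T positions of 4 libraries, summed over 37 to 68 reads per library. This allows a rate of up to 0.0604% (counting error only, since no molecular identifiers are described). That limit treats the T positions of a read as independent. For the other 6 genes the log2 ratio was −0.42 (Idi1, −1.02 to 0.17) to 0.17 (Fdft1, −0.39 to 0.72), with exact permutation p of 0.0857 for Idi1 and 0.429 to 0.743 for the rest. With 3.5 h left out of every series, the log2 ratio of Idi1 was −0.30 (−0.81 to 0.22). Fitted to the amount of labelled RNA, the Idi1 series averaged 3.42 h in DMSO, against 4.25 h from the rate. Its exact permutation p was then 0.257, and Hmgcs1 (4.14 h) and Srebf2 (4.16 h) were the longest in DMSO.

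**Figure D5:**
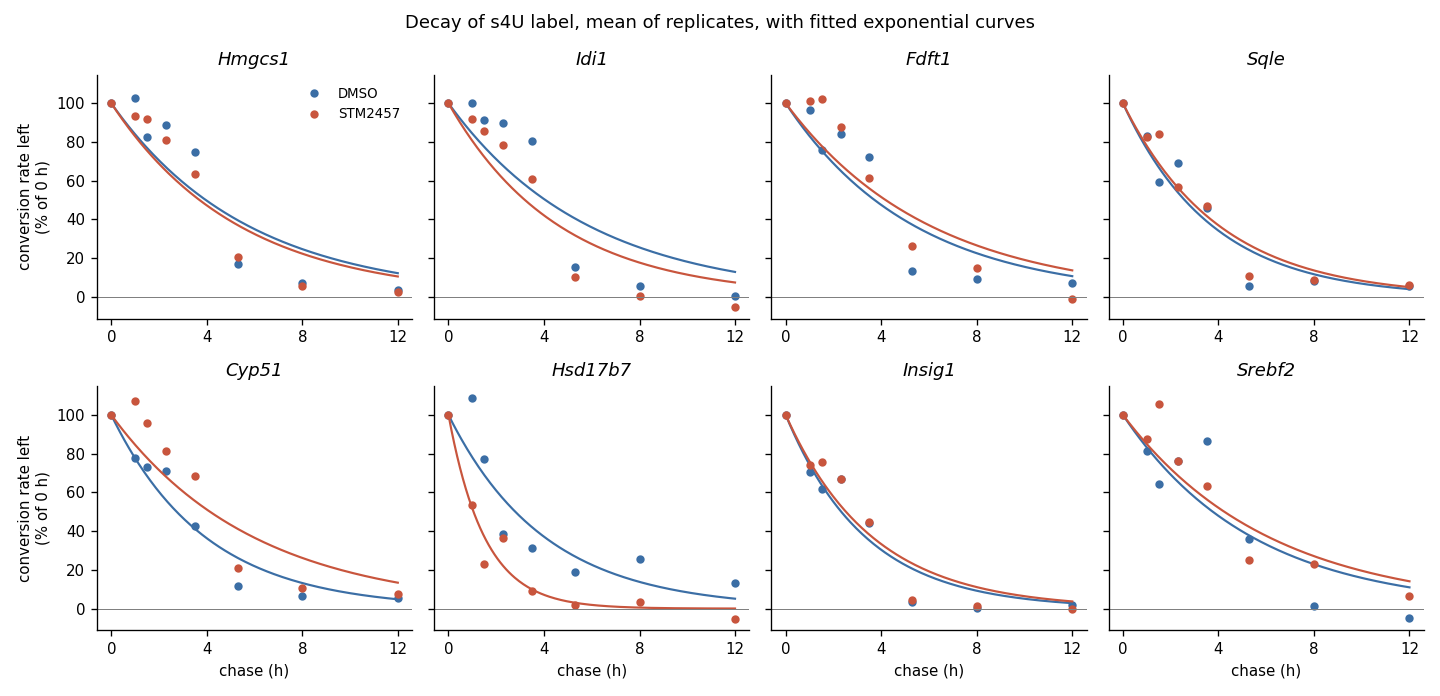
Conversion rate left, in percent of the 0 h rate after background subtraction (y axis), against hours of chase (x axis) for the 8 genes in DMSO (blue) and STM2457 (red). Points are means of 3 or 4 replicates without error bars, values below 0 lie under the background, and curves are the fitted exponential decays, whose half-lives differ most for Hsd17b7 (2.80 h and 1.05 h) and Cyp51 (2.74 h and 4.13 h).

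Conversion rates themselves were compared in a fit of all libraries. At 0 h, Insig1 had 1.71 ± 0.24% in DMSO and 1.57 ± 0.06% in STM2457 (SD, n = 4 each), against 0.0797% and 0.0605% without s4U. Cyp51 had 1.56 ± 0.24% and 1.24 ± 0.29%, against 0.184% and 0.168%. No gene of 9015 was called by limma at 0 h, a share of 0%, nor in the labelled share left during the chase (190 and 260 genes at an unadjusted p under 0.05, none of the 8 among them). The share left of Cyp51 was higher by 0.36 on the log2 scale of the rate plus 0.1 percentage points (−0.00 to 0.73) and that of Hsd17b7 differed by −0.91 (−2.36 to 0.54).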

How the data were processed

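SLAM-seq counts were taken from 71 libraries of mESC. The authors mapped QuantSeq 3′ reads to GRCm38.p6 with SLAM-DUNK, checked them with FastQC 0.11.8 per the labels, counted them in 3′ UTR windows and collapsed the windows per gene. They deposited raw counts of reads, multimapping reads, covered T positions (summed over reads) and conversions. They also deposited conversion rates as a fraction, which equalled conversions over coverage in every gene and library. Hours of chase came from the study's source data and not from the labels.

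Read counts were tested in edgeR 4.0.16 (R 4.3.3) by the quasi-likelihood test in 1 fit of 18 groups, with TMM scaling, filterByExpr and Benjamini-Hochberg adjustment over 12659 genes, and called at an adjusted p under 0.01. CPM values were reads over the total of each library. Half-lives followed the study's decay model (rates minus those without s4U, divided by 0 h, an exponential fixed at 1 at 0 h), kept at covered T positions above 100, a residual SE under 0.3 and 0.67 to 18 h. limma 3.58.1 compared log2 half-lives of 4 series (adjusted p under 0.05) and log2(percent rate + 0.1). Alternatives used DESeq2 1.42.0, RLE factors, no filter and others. Statistics were tested on simulated data.

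The 8 genes and all lists were chosen with earlier results of these data known. The text names the 8 genes, the 4 genes of each list with the smallest p in the mean over the chase, and the 6 genes with the most similar profile. The 3 sterol enzymes that were not called, Elovl6 and the 3 genes left out of a plot were named after their values were seen. Fdps, Rnf139, Sox2 and Sox1 were not analysed here. Some other genes of these lists are not reported here and were left out of the counts and medians of the lists after their values were seen, for a reason unrelated to those values.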

Additional observations from a re-analysis of the deposited data

Results flagged for a closer look

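Dixon's criterion was applied to 152 sets of 4 values of the 8 genes, made of CPM in groups of 4 libraries and half-lives of the 4 series of a treatment. In 6 sets, all of CPM, 1 library lay far from the other 3, where chance flags about 1 in 20 groups. Hmgcs1 was at 366.3 CPM in DMSO replicate 1 at 1 h, against 601.1 to 625.6 in the others. It was at 451.3 in STM2457 replicate 1 without s4U, against 491.9 to 498.9, and Srebf2 in the same library was at 27.72, against 49.62 to 53.82. Fdft1 was at 178.6 in STM2457 replicate 4 at 1.5 h, against 162.6 to 164.7. Hsd17b7 was at 8.335 in DMSO replicate 2 at 5.3 h, against 12.79 to 13.42. Insig1 was at 121.3 in STM2457 replicate 4 at 1 h, one of the libraries that stood apart, against 201.2 to 216.6. The change of Sqle from 0 h to 12 h differed between treatments by 0.7147 on the log2 scale, by the interaction test given above.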

How the results depend on the processing

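In the mean over the chase, each of the 8 genes kept its direction under every alternative run, except Srebf2 without 1 h and 5.3 h (0.01, adjusted p = 0.958), and 5 to 7 of them were called. Within a time, or without s4U, replicate numbers did not pair DMSO with STM2457 libraries (mean correlation of deviations 0.022 over 35 pairs, −0.157 to 0.438). This does not cover the link between times within a treatment that the half-life series assume. With a replicate block, Sqle kept its interaction (0.71, adjusted p = 0.0011), Fdft1 its difference in the mean over the chase, and the block moved no count of calls by over 1.5 times. Low counts limit Hsd17b7 most, and reads shared with copies limit Idi1, whose change in STM2457 reversed to 0.07412 without multimapping reads. The within-group component, the libraries far out on it, the times 1 h and 5.3 h and the residual limit in every series were alternatives chosen after seeing the data. Causes of the changes below were not tested.

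At an adjusted p under 0.05, calls among all genes were 461, 390, 2313, 455, 343, 1498, 591 and 1258 from 0 h to 12 h in time order (213, 194, 1035, 204, 164, 563, 296 and 685 at 0.01), 743 without s4U (326), 2856 and 1205 for the change over the chase in DMSO and STM2457 (1651 and 598), 283 for the interaction (140), 157 and 189 for labelling in DMSO and STM2457 (65 and 66), 4065 for all times together in STM2457 (2415) and 527 for all interaction terms (225). Of the 8 genes, 3 were then called at 2.3 h, 6 at 12 h, 6 for all times in STM2457 and 2 for all interaction terms. With the component as a covariate, calls among all genes were 353, 415, 382, 444 and 349 from 0 h to 3.5 h, 559 at 8 h, 1166 at 12 h, 1089 for the change in STM2457, 269 for the interaction, 198 and 215 for labelling, and 1890 and 1389 for all times together in DMSO (3807) and STM2457. Of the 8 genes, 2 were called at 0 h, 2 at 1.5 h, 3 at 2.3 h, 2 without s4U and 1 for all interaction terms. Without the 5 far libraries, 1659 genes were called at 1.5 h, 136 at 5.3 h, 99 and 105 for labelling and 439 for all interaction terms, with 2 of the 8 at 2.3 h and 2 for all interaction terms. In fits of the groups compared alone, 0 genes were called at 1 h, 453 at 2.3 h, 310 at 3.5 h, 159 at 5.3 h, 541 at 8 h, 107 without s4U, 956 for the change in STM2457 and 14 for labelling in DMSO, with 0, 4, 4 and 0 of the 8 at 1, 2.3, 3.5 and 5.3 h. DESeq2 called 311 genes at 2.3 h and 112 and 125 for labelling, with 2 of the 8 at 2.3 h. With RLE factors, 1 of the 8 was called at 5.3 h, and without a filter, 1 at 1 h and 1 at 5.3 h. Without multimapping reads, 1 of the 8 was called at 1 h, 1 at 1.5 h, 1 at 3.5 h, 1 for the change in STM2457, 1 for all times in STM2457 and 2 for all interaction terms. The stricter residual limit in every series called 1 transcript by half-life, none of the 8.

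With replicates left out, calls among all genes ran from 80 to 193 at 0 h, 90 to 185 at 1 h, 230 to 1200 at 1.5 h, 72 to 118 at 2.3 h, 43 to 111 at 3.5 h, 101 to 882 at 5.3 h, 111 to 174 at 8 h, 352 to 600 at 12 h, 2299 to 3395 in the mean over the chase, 103 to 295 without s4U, 857 to 1617 and 179 to 488 for the change in DMSO and STM2457, 40 to 153 for the interaction, 14 to 51 and 9 to 60 for labelling, 1735 to 4047 and 713 to 2059 for all times together, and 58 to 147 for all interaction terms. Of the 8 genes, 0 to 1 were called at 1 h, 0 to 1 at 3.5 h, 0 to 2 at 5.3 h, 2 to 3 at 8 h, 2 to 5 at 12 h, 4 to 6 and 0 to 2 for the change in DMSO and STM2457, 0 to 1 for the interaction, and 6 to 7 and 2 to 3 for all times together.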
